A study of Mus musculus with 2 samples.

Results

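The genes described here are the tubulins Tubb5, Tubb2a, Tubb2b, Tubb2c, Tubb3, Tubb6, Tuba1a, Tuba1b and Tuba4a and the microtubule regulator Stmn1, 10 in all. Of these, 9 had a probe on the arrays, where 27729 entries were counted as genes, including transcripts without a gene symbol. The 10 genes were chosen by name with earlier ratios of these same arrays known. Their ratios below are thus a description and no test is given. All probes carrying one of these names in both scanner tables were used, which gave 16 probes for 9 genes. No probe was named Tuba1b, and its level was not analysed here.

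The populations compared were Lgr5-high and Lgr6-high cells of mouse dorsal skin, sorted for the highest green fluorescence from Lgr5-EGFP-ires-CreERT2 and Lgr6-EGFP-ires-CreERT2 knock-in mice. The reporter and CreERT2 were thus present in both populations and were driven by the Lgr5 or the Lgr6 promoter. Each sort combined 3 mice, and the labels give neither the age nor the sex of the animals. Array 1 carried Lgr5-high RNA in Cy3 and Lgr6-high RNA in Cy5, and array 2 carried the same populations with the dyes exchanged. Nothing in the labels shows separate RNA pools for the 2 arrays, so they were treated as 1 replicate measured in both dye orientations. Every SD below is over these 2 arrays and holds no spread between animals. Because whole sorted populations were measured, fewer cells of a type and less RNA per cell cannot be told apart.

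Microtubules are polymers of alpha and beta tubulin dimers, and mammals encode each subunit in several closely related genes. Gamma tubulin sits in the ring complex from which microtubules grow, while chaperonins and cofactors fold the dimers. Stathmin, the product of Stmn1, binds free tubulin dimers and promotes depolymerisation, and it is often abundant in dividing cells. In the hair follicle, Lgr5 marks cells of the lower bulge and hair germ, and Lgr6 marks cells above the bulge.

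Each ratio is the log2 of Lgr6-high over Lgr5-high signal, so a negative value means more signal in the Lgr5-high cells. Scanned signals are mean spot intensities on a linear scale, before any correction, and differ with the dye. Each array held 43379 probe spots, of which 31.6% and 33.3% were well above background in Cy3 and 15.3% and 16.2% in Cy5. No probe spot was saturated and no spot of a tubulin or Stmn1 was marked as an outlier. Lgr5 itself measured -1.83 ± 0.12, with -1.74 on array 1 and -1.92 on array 2, the direction of its label. Lgr6 did not pass the filter on dim probes, so its label could not be checked on its own RNA. Krt15, a keratin of follicle epithelium, was well above background for both populations on both arrays.

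Of the 16 probes, 13 were well above background for at least 1 population on both arrays and passed the filter. They stood for 8 genes, each represented by its brightest passing probe, while Tubb2b did not pass. A gene was called when its mean ratio reached 1 in size and each array reached 0.5 with the same sign. By this rule 2 of the 8 genes, Tubb5 and Stmn1, were higher in the Lgr5-high cells, where 4.76% of all 6195 genes tested were called in that direction. None of the 8 was higher in the Lgr6-high cells, where 7.28% of all genes were called. The median ratio of the 8 genes was -0.57 (-0.35 on array 1 and -0.64 on array 2), and that of all genes was -0.05. Among the 8, 5 lay below 0 on both arrays, 2 lay above 0 on both, and Tubb2c changed sign between the arrays. The choice of the genes used this contrast, so nothing is read from these shares. The split of all calls moved with the processing, from 451 genes higher in Lgr6-high and 295 higher in Lgr5-high to 958 and 958 with the scanner's own ratios, which change background and normalisation together, and to 124 and 151 when the background model was fitted on all spots.

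**Figure D1:**
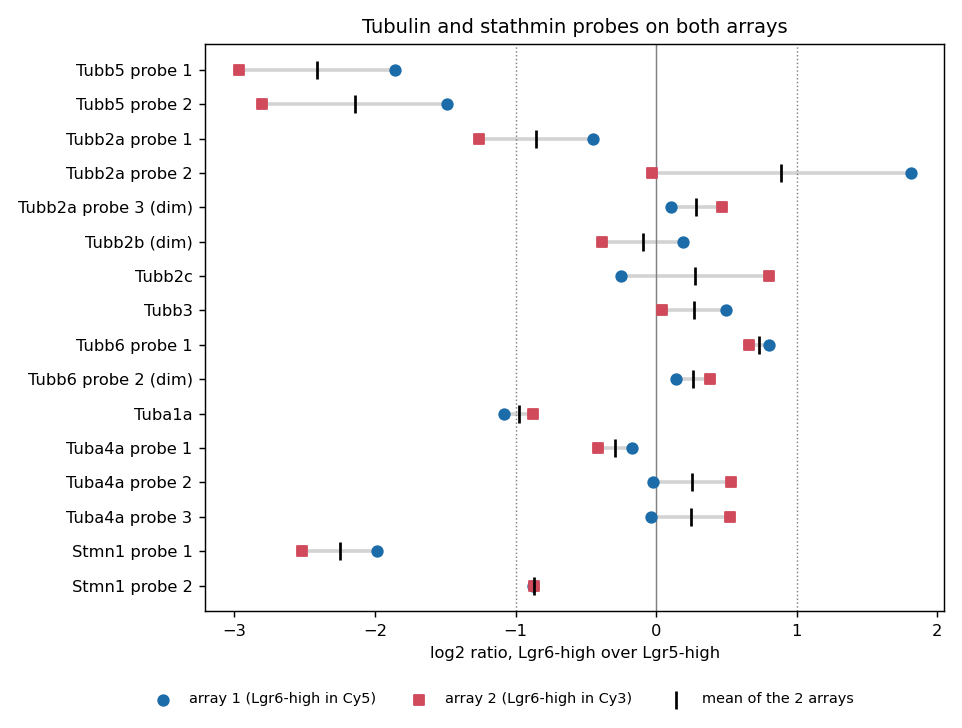
Log2 ratio of Lgr6-high over Lgr5-high (horizontal axis) for each of the 16 probes, with a circle for array 1, a square for array 2 and a bar for their mean; dotted lines mark a ratio of 1 in size. Both Tubb5 probes and Stmn1 probe 1 lie below -1 on both arrays, and the other probes have means between -0.98 and 0.89.

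The probe sequences give 1 example of likeness between beta tubulin genes. Probes were compared only with each other, so how far the signals of these genes can be separated was not tested. A probe of Tubb5 and one of Tubb2a overlap by 25 bases, of which 22 are identical. They are shown 5′ to 3′ as deposited, with the 3 differing bases of the overlap in capitals.
Tubb5 probe 2 (chr17:35971963-35972022, minus strand): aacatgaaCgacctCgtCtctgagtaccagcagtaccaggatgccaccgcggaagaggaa
Tubb2a probe 1 (chr13:34166411-34166470, minus strand): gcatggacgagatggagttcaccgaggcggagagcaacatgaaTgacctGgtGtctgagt
Both read without a stop codon in 1 frame. Positions of probes are those in the files, on mouse build mm9; exons and UTRs were not assigned, since no annotation of that build was used. No other pair of probes, each from a different gene of the 10, shared an overlap of at least 20 bases with at least 75% identity. Cross-hybridisation between paralogs was not tested.

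Tubb5 encodes a beta tubulin expressed in most cell types, and it had the most negative ratio of the 8 genes. Probe 1 (chr17:35971872-35971931, minus strand) gave scanned Lgr5-high signals of 40580 in Cy3 on array 1 and 11265 in Cy5 on array 2. The Lgr6-high signals of the same probe were 12545 in Cy3 on array 2 and 1572 in Cy5 on array 1. In each dye the Lgr5-high signal was the higher, and the populations overlapped only when different dyes were set side by side. The log2 ratio was -1.86 on array 1 and -2.97 on array 2, with a mean of -2.41 ± 0.79 (SD, 2 arrays), which is 5.33-fold more signal in the Lgr5-high cells. After scaling between arrays, its log2 level was 14.43 ± 0.47 in Lgr5-high and 12.01 ± 0.32 in Lgr6-high cells. The second Tubb5 probe, printed above, moved the same way. Its scanned signals were 22017 and 6975 in Lgr5-high against 1211 and 8004 in Lgr6-high cells on arrays 1 and 2. Its ratio was -1.49 on array 1 and -2.80 on array 2, with a mean of -2.15 ± 0.93 and a fold of 4.42. Both probes thus passed the rule, and for both the ratio was larger in size on array 2. Counted from the Lgr5-high end, Tubb5 ranked 15 of the 6195 genes.

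**Figure D2:**
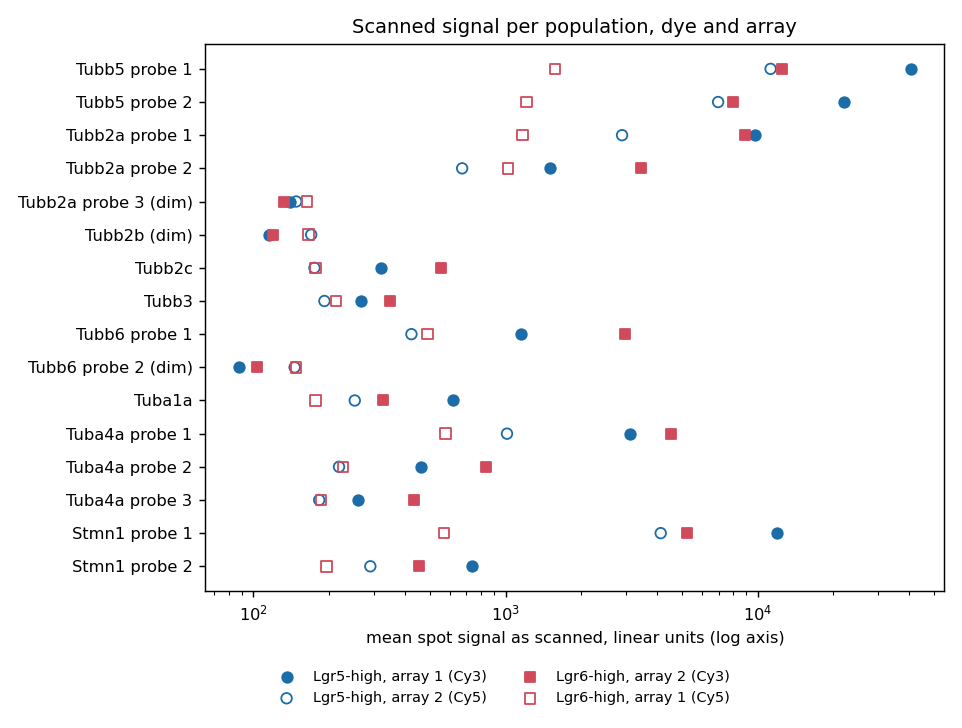
Mean spot signal as scanned (horizontal log axis, linear units) for each probe, with circles for Lgr5-high and squares for Lgr6-high RNA, filled in Cy3 and open in Cy5. For both Tubb5 probes and both Stmn1 probes the circle lies to the right of the square in each dye, while for Tubb6 probe 1 the square lies to the right in each dye; levels of different probes are not comparable.

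Tubb2a encodes a beta tubulin that is prominent in brain, and its probes disagreed. Probe 1, printed above, gave scanned signals of 9739 and 2900 in Lgr5-high and 1170 and 8883 in Lgr6-high cells on arrays 1 and 2. Its ratio was -0.45 on array 1 and -1.26 on array 2, a mean of -0.85 ± 0.57, which did not pass the rule. Probe 2, of 60 bases, is listed at chr13:34166129-34166158, a span of only 30 bases. It gave signals of 1495 and 673 in Lgr5-high and 1024 and 3460 in Lgr6-high cells. Its ratio was 1.81 on array 1 and -0.03 on array 2, a mean of 0.89 ± 1.30. The 2 probes of Tubb2a therefore had means of opposite sign, and the array-to-array SD of the second was larger than its mean. Probe 3 was well above background for each population on only 1 array and measured 0.10 and 0.47. The mean of the 2 passing probes was 0.02, so the direction of Tubb2a depends on the probe.

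Tubb2b, a neighbour of Tubb2a on chromosome 13, was not well above background for either population on either array. Its probe (chr13:34219061-34219120) gave scanned signals of 116 and 169 in Lgr5-high and 165 and 120 in Lgr6-high cells, and its ratio of 0.20 on array 1 and -0.38 on array 2 is given without a fold. Tubb2c, which RefSeq now lists as Tubb4b, encodes a widely expressed beta tubulin that is also found in cilia. Its probe is shown because its ratio changed sign between the arrays. It also reads without a stop codon in 1 frame.
Tubb2c (chr2:25078506-25078565, minus strand): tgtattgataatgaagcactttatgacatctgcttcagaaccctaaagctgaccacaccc
The Tubb2c signals were 319 and 175 in Lgr5-high and 176 and 555 in Lgr6-high cells on arrays 1 and 2. The ratio was -0.25 on array 1 and 0.80 on array 2, a mean of 0.27 ± 0.74. The arrays gave opposite signs, and no direction is stated for this gene.

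Tubb3, the beta tubulin used as a marker of neurons, was printed in 10 spots per array, which shows the error of repeated spots. On array 1 the 10 Cy3 spots ranged from 257 to 280 and the Cy5 spots from 199 to 229. On array 2 the Cy3 spots ranged from 325 to 372 and the Cy5 spots from 172 to 201, and 9 of the 10 Cy5 spots were well above background. The ratio was 0.50 on array 1 and 0.05 on array 2, a mean of 0.27 ± 0.32, which is smaller than the SD between arrays. Tubb3 (chr8:125945701-125945760, plus strand) did not pass the rule.

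Tubb6, a beta tubulin of chromosome 18, was the gene of the 8 with the most positive ratio. Its probe 1 gave scanned signals of 1153 and 423 in Lgr5-high and 490 and 2981 in Lgr6-high cells on arrays 1 and 2. In each dye the Lgr6-high signal was the higher, by little in Cy5. The ratio was 0.80 on array 1 and 0.66 on array 2, a mean of 0.73 ± 0.10, which is 1.66-fold and short of the rule. A second Tubb6 probe was not well above background for either population and measured 0.14 and 0.39. It is listed on the minus strand and probe 1 on the plus strand, and whether it reads Tubb6 RNA was not tested.

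Among the alpha tubulins, Tuba1a is a form known from neurons, and it had the more negative ratio. Its probe of 60 bases is listed at chr15:98780278-98780293, a span of only 16 bases. The scanned signals of Tuba1a were 621 and 252 in Lgr5-high and 176 and 328 in Lgr6-high cells on arrays 1 and 2. Lgr5-high was the higher in each dye. The ratio was -1.08 on array 1 and -0.87 on array 2, a mean of -0.98 ± 0.15, which lies just outside the rule at 1.97-fold. The scanner's own ratio of the same spots was -1.98 on array 1 and -1.61 on array 2, which passed it. Those ratios differ from the reported ones in both background treatment and dye normalisation. Tuba1a was also called on array 1 alone, and its direction was the same in all 13 alternatives.

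Tuba4a, an alpha tubulin encoded without a C-terminal tyrosine, had 3 passing probes on chromosome 1 with ratios near 0. Probe 1 (chr1:75212307-75212366) gave signals of 3112 and 1014 in Lgr5-high and 579 and 4523 in Lgr6-high cells, and a ratio of -0.17 on array 1 and -0.41 on array 2, a mean of -0.29 ± 0.17. Probe 2 measured -0.02 and 0.53, a mean of 0.26 ± 0.39. Probe 3 measured -0.04 and 0.53, a mean of 0.25 ± 0.40. None passed the rule, and the mean over the 3 probes was 0.07, against -0.29 for the brightest.

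Stmn1 was measured by a pair of probes on the plus strand of chromosome 4, and both gave more signal in the Lgr5-high cells. Probe 1 (chr4:134029522-134029581) gave scanned signals of 11919 and 4128 in Lgr5-high and 570 and 5257 in Lgr6-high cells on arrays 1 and 2. Its ratio was -1.99 on array 1 and -2.52 on array 2, a mean of -2.25 ± 0.38 and a fold of 4.76. In each dye the Lgr5-high signal was the higher. The second probe is shown because it gave a smaller ratio; it reads without a stop codon in 2 frames.
Stmn1 probe 2 (chr4:134026685-134026744, plus strand): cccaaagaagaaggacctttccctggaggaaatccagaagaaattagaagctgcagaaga
Its signals were 735 and 291 in Lgr5-high and 195 and 454 in Lgr6-high cells. Its ratio was -0.87 on both arrays, a mean of -0.87 ± 0.01 and a fold of 1.83, so it did not pass the rule that probe 1 passed. With the scanner's ratios the means of the probes were -2.07 and -1.47, which brought them closer together. Counted from the Lgr5-high end, Stmn1 ranked 19 of 6195 genes by probe 1. The mean over both probes was -1.56.

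Both called genes lie in a part of the intensity range where the ratios of the 2 arrays were shifted against each other. The 100 genes nearest to Tubb5 in spot intensity had a median ratio of 0.29 on array 1 and -0.88 on array 2. Relative to them, Tubb5 measured -2.15 on array 1 and -2.09 on array 2, a mean of -2.12. For Stmn1 the neighbours' medians were 0.07 and -0.52, and relative to them Stmn1 measured -2.05 and -2.0. The gap between the arrays thus shrank for both genes while the mean stayed near -2. For Tubb2a the values relative to neighbours were -0.51 and -0.70, for Tuba1a -0.91 and -0.93, and for Tubb6 1.0 and 0.80. This centring was chosen after the data were seen, and none of these 3 genes passed the rule with it.

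**Figure D3:**
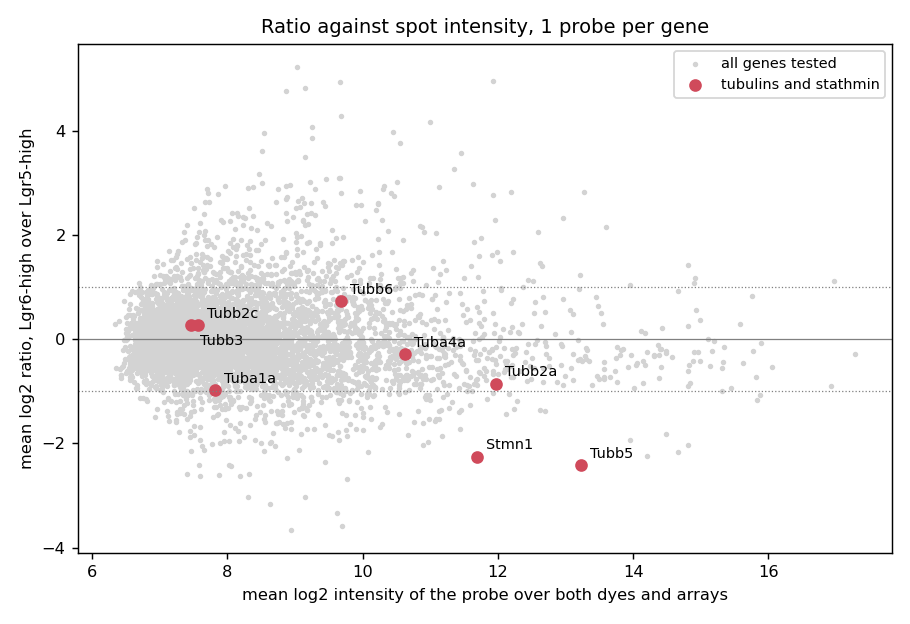
Mean log2 ratio of Lgr6-high over Lgr5-high (vertical axis) against mean log2 intensity of the probe over both dyes and arrays (horizontal axis), with 6195 genes in grey and the 8 tubulin and stathmin genes in red. Tubb5 at -2.41 and Stmn1 at -2.25 lie below the grey points of similar intensity, and the other 6 genes lie between -0.98 and 0.73.

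The direction of Tubb5 and Stmn1 was the same in 13 alternatives of processing, and each was called in 12 of them. Of these, the settings for marked spots and for dim probes left both genes' values as they were, and the scanner's ratios and the authors' value table hold the same values. The mean of Tubb5 ranged from -3.57 to -1.86 and that of Stmn1 from -3.01 to -1.56. The exception was median centring without loess, which corrects nothing that varies with intensity. There Tubb5 measured -4.57 on array 1 and -0.14 on array 2, a mean of -2.35, and Stmn1 measured -4.42 and 0.07, a mean of -2.17. The means kept their size and array 2 missed the rule.

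**Figure D4:**
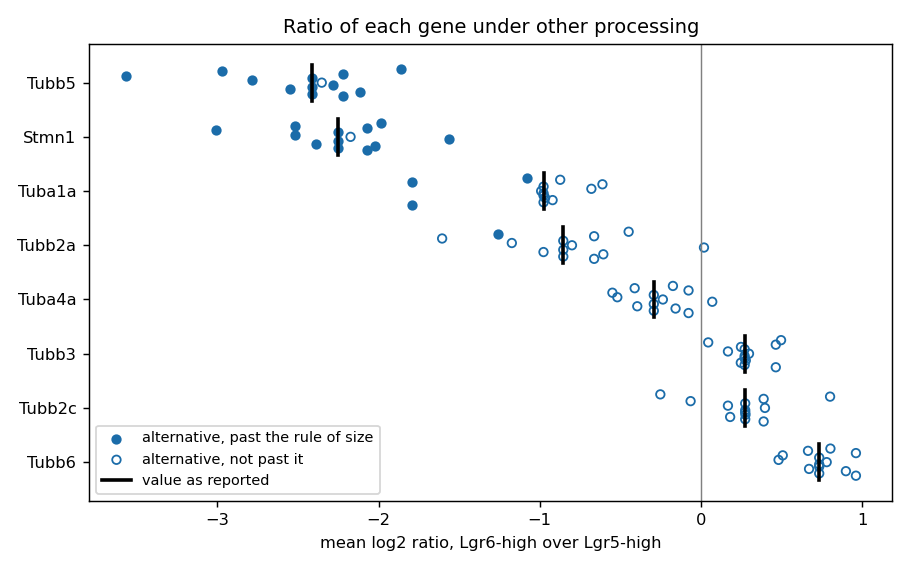
Mean log2 ratio of Lgr6-high over Lgr5-high (horizontal axis) of each of the 8 genes under 13 alternatives of processing, filled where the rule of size was passed and open where it was not, with a bar for the value as reported. All means of Tubb5 and Stmn1 are -1.56 or lower, Tuba1a ranges from -1.79 to -0.61, and Tubb2a reaches 0.02.

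The genes nearest in ratio on both arrays were taken from all 6195. For Tubb5 they were a transcript without a gene symbol (-1.98 and -2.88), the lipid desaturase Scd2 (-2.0 and -2.81) and the collagen Col3a1. For Stmn1 they were the secreted BMP and WNT antagonist Sostdc1 (-1.79 and -2.52), the bulge transcription factor Lhx2 (-1.96 and -2.30) and the proteoglycan Dcn. Col3a1 and Dcn were not well above background in Lgr6-high cells on either array, and Scd2 on only 1, so their nearness rests on signals at or near background. Likeness was the distance between the pairs of array ratios, over 2 arrays only.

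Other genes of the microtubule pathway were described by lists. Of 8 further tubulins on the array, 4 were tested, with a list median of -1.09. Of these, 2 were called higher in Lgr5-high cells, where 4.76% of all genes tested were called. They were the beta tubulin Tubb4a (-1.59 ± 0.38), known from brain, and the gamma tubulin Tubg1 (-1.23 ± 0.17), which nucleates microtubules. The other tested tubulins were Tuba3a at -0.94 ± 0.15 and Tuba1c at -0.68 ± 0.06. All 4 lay below 0 on both arrays by these probes. Another Tuba1c probe, whose spot was marked on array 2 and left out there, measured 0.87 on array 1, the opposite sign. It was the brighter probe, with scanned signals of 17696 in Lgr5-high and 4283 in Lgr6-high cells on array 1. The Tuba1c probe used above gave 1734 and 318 there. None of the 3 other stathmin genes passed the filter.

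Over all genes tested, 12% were called in either direction, so lists this short can hold few calls. No gene was called among 11 tested folding cofactors and CCT chaperonin subunits (median -0.16), 5 tubulin modifying enzymes (-0.31) or 2 ring complex proteins (-0.30). The same held for 8 microtubule associated and plus end proteins (0.20) and 3 severing or depolymerising proteins (-0.01). Ratios of the folding genes ranged from -0.87 to 0.32, and those of the microtubule associated proteins from -0.78 to 0.95. The difference between lists was not tested.

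**Figure D5:**
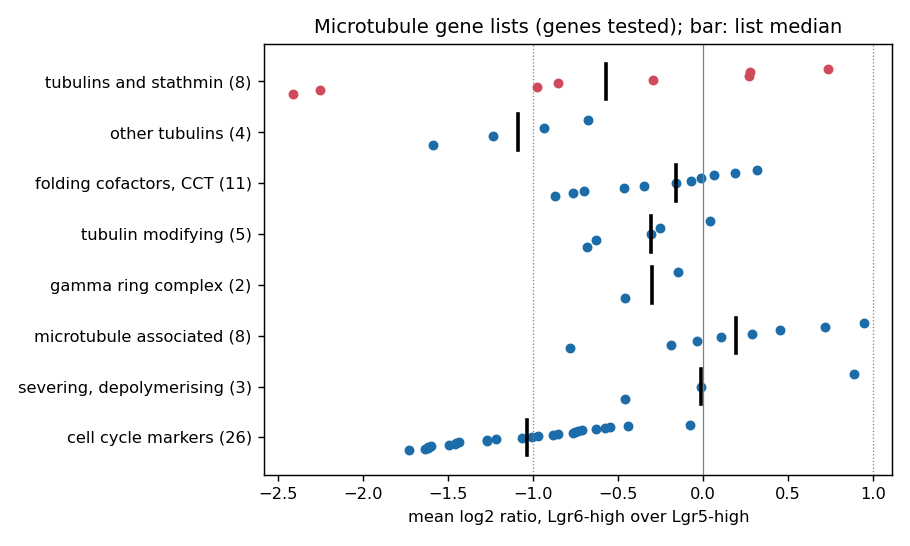
Mean log2 ratio of Lgr6-high over Lgr5-high (horizontal axis) of every tested gene of the microtubule lists and the cell cycle list, with a bar at the list median and the number of genes tested in parentheses. The further tubulins (median -1.09) and the cell cycle markers (median -1.04) have the most negative medians of the lists drawn, and the microtubule associated proteins have a median of 0.20.

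Cell cycle markers moved in the same direction as Tubb5 and Stmn1. Of 26 tested, 14 (53.8%) were called higher in Lgr5-high cells, none in Lgr6-high cells, and the median was -1.04. The shares over all genes tested were 4.76% and 7.28%. Examples are the chromosomal passenger protein Birc5 (-1.73 ± 0.38), the replication helicase subunit Mcm7 (-1.64 ± 0.11), the mitotic cyclin Ccnb2 (-1.62 ± 0.09) and the anaphase activator Cdc20 (-1.62 ± 0.51). The summed level of the 26 genes was 22100 and 21230 in Lgr5-high against 9862 and 8847 in Lgr6-high cells on arrays 1 and 2. Their part in the ratios of Tubb5 and Stmn1 was not tested.

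Markers of other cell types differed as well. Beside the counts that follow, 4.76% of all genes tested were called higher in Lgr5-high and 7.28% in Lgr6-high cells. Of 7 tested dermal fibroblast markers 5 were higher in Lgr5-high cells, with summed levels of 3392 and 2055 against 929 and 457, and 4 of the 7 were not well above background in Lgr6-high cells on either array. Of 4 tested endothelial and mural markers 3 were higher in Lgr5-high cells, with summed levels of 2900 and 2447 against 1220 and 1172. The fourth, Acta2, lay above 0 on both arrays (0.60 and 1.19). Of the 3, Egfl7 was not well above background in Lgr6-high cells on either array. Another 8 listed endothelial and mural markers, Pecam1 and Cdh5 among them, did not pass the filter. Of 4 tested Schwann cell and nerve markers 3 were higher in Lgr6-high cells, with summed levels of 525 and 660 against 2034 and 2450. The nerve and glial genes Sox10, Nefl, Nefm, Gap43 and Uchl1 did not pass the filter. Bulge markers were called in 5 of 10 toward Lgr5-high, upper follicle markers in 5 of 9 and suprabasal markers in 5 of 6 toward Lgr6-high cells. The upper follicle marker Sostdc1, named above, was called in the opposite direction. Of the 9 upper follicle markers 3 (Defb6, Ly6a and Gata6) were not well above background in Lgr5-high cells on either array. Only Defb6 of these 3 was called. The called suprabasal marker Krt1 was likewise dim in Lgr5-high cells, and the called Lor was well above background there on only 1 array. These genes passed the filter only through the Lgr6-high cells. Among the 5 called bulge markers was Lgr5 itself, by whose reporter the Lgr5-high cells were sorted. Summed levels of the bulge markers were 19520 and 36730 in Lgr5-high against 47880 and 30320 in Lgr6-high cells, which is opposite on the 2 arrays. The brightest bulge marker, Krt15, measured 1.95 on array 1 and -0.12 on array 2 and was not called. The bulge marker Foxc1 measured 0.01 and 0.81 and was not called either. The 1 melanocyte marker tested, Dct, was called toward Lgr5-high and was not well above background in Lgr6-high cells on either array. None of 2 Merkel cell markers or 1 leukocyte marker was called. The part of these cell types in the tubulin ratios was not tested.

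Promoters are shown for Tubb5 and Tuba1a, the most negative beta and alpha tubulin of the 8 genes tested. RefSeq's table of build GRCm38.p6 matched 7 of the 10 genes. The 250 bases before the start are printed on the gene's strand, with matches to motifs in capitals. The first motif searched was CCAAT, on both strands. The second motif, the core of the sequence known as a GC box, was GGGCGG, likewise on both strands. No match to the first overlapped a match to the second in the printed windows.
Tubb5 (chr17:35838302-35838551, minus strand): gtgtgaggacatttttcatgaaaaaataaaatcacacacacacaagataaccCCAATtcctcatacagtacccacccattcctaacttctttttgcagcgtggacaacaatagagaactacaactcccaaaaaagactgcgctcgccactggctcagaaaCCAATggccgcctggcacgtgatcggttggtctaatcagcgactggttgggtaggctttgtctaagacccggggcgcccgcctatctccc
Tuba1a (chr15:98953502-98953751, minus strand): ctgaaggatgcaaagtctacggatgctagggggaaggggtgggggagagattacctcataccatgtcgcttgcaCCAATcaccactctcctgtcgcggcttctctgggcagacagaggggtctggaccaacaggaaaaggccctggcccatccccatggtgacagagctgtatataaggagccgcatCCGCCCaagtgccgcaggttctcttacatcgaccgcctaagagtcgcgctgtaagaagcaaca
Tubb5 held 2 matches to CCAAT and 0 to GGGCGG, and Tuba1a held 1 of each. Of all 32851 promoters, 33.8% held CCAAT and 32.7% held GGGCGG in the same window on either strand. Tubb2c, with opposite signs on the arrays, held 5 matches to CCAAT, while Tubb2a and Tuba4a held 0 matches to it and 2 to GGGCGG. Also searched on both strands was TATAAA, held by 12.4% of all promoters and once by Tubb2a. The last motif, TTTGAA, was held by 16.0% of all promoters and once by Tubb2c; neither was in the printed windows. Matches are letters in a window and were not tied to binding or to the ratios.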

How the data were processed

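RNA of Lgr5-high and Lgr6-high dorsal skin cells was measured on 2 two-colour Agilent arrays with exchanged dyes. For each array the authors deposited a scanner table of spot and local background intensity on a linear scale, whether each spot was well above background, and a log10 ratio after the software's dye normalisation. Per the file headers the software was Feature Extraction 10.5.1.1; the submitters' processing notes name 9.5.3. The authors' deposited value table holds the same log10 ratios turned to Lgr6-high over Lgr5-high, equal within 4.997e-06.

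With limma 3.58.1 in R 4.3.3, background was corrected by normexp (offset 50, fitted on spots without an outlier mark), which shrinks ratios of dim spots, and ratios were normalised by loess (span 0.3), with control spots at weight 0. Control and marked spots were left out and spots of a probe averaged. Levels per population were scaled between arrays with Aquantile. The script was tested on simulated data. Probes were named through RefSeq accessions, symbols or synonyms (25097, 6333 and 1640 of 41174). The 10 genes are all named. Of the microtubule and cell cycle lists the called genes are named, up to 4 a list. Tuba3a, Tuba1c, Dct, Mki67, Pcna, Bub1, Defb6, Ly6a, Gata6, Krt1 and Lor were chosen after their values were seen. Members and lists were chosen with earlier results of these data known. Alternatives changed the background, scaling, filter, probe, call rule or array; the limma alternative used lmFit and eBayes with Benjamini-Hochberg adjustment at 0.05. The number of arrays limits the precision.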

Additional observations from a re-analysis of the deposited data

How the results depend on the processing

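Among the 8 tubulin and stathmin genes, the count called higher in Lgr5-high cells was 0 with median centring in place of loess, 4 with a 1.5-fold rule and 3 with either array alone, against 2 as reported. The count called higher in Lgr6-high cells was 1 with the 1.5-fold rule and 0 with either array alone. Over all genes tested, counts higher in Lgr5-high and in Lgr6-high cells were 151 and 124 with normexp fitted on all spots, 204 and 212 with no background subtraction, 958 and 958 with the authors' value table or, equally, the scanner's ratios, 57 and 134 with median centring, and 840 and 909 with the 1.5-fold rule. They ranged from 315 to 471 and from 434 to 611 when either array was left out. The cause was not tested.

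The signs of Tubb2a and Tuba4a turned when all passing probes were averaged (0.02 and 0.07), and that of Tubb2c with normexp fitted on all spots (-0.06) and without array 2 (-0.25). Scanned signals close to background limit Tubb2b, the second Tubb6 probe and the third Tubb2a probe. Each ratio is already a paired difference within an array, and no further replicate block could be fitted because there is 1 group of ratios.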
